A study of Mus musculus with 6 samples.

Results

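The genes described are 10 chemokine and cytokine genes of effector T cells, Ccl1, Ccl3, Ccl4, Ccl5, Ccl20, Csf2, Tnf, Lta, Ltb and Lif, taken by symbol from a count table of 31017 genes. All 10 stood in the table, 9 passed the filter on low counts, and Ccl1 had no count in any library. RNA was sequenced from mouse Th17 cells made in culture, in 3 control libraries (genotype WT in the labels) and 3 RTF1-deficient libraries (KO). RTF1 is a nuclear protein that accompanies RNA polymerase II and promotes ubiquitination of histone H2B. How the gene was inactivated, the strain, the age of the animals, the polarising cytokines and the day of harvest are not given in the sources used here, nor whether the replicates came from separate animals, so p-values measure the spread between these libraries.

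Chemokines are small secreted proteins that guide leukocytes along gradients. CCL3, CCL4 and CCL5 attract monocytes and effector T cells, CCL1 binds CCR8, and CCL20, a chemokine that Th17 cells make, binds CCR6, which they also carry. TNF and the lymphotoxins are trimeric ligands of one family. LTA is secreted alone as a trimer that binds the TNF receptors, or is held at the membrane with LTB as a ligand of the lymphotoxin beta receptor. GM-CSF, the product of Csf2, acts on myeloid cells and is tied to the disease-causing capacity of Th17 cells, and LIF is an IL-6 family cytokine that signals through LIFR and gp130.

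Total counts ran from 16489813 to 51271226 per library. The targeted gene was lower in KO without being lost: Rtf1 held 94.0, 91.2 and 88.3 CPM (read counts scaled to library size with TMM factors) in the controls against 45.3, 30.4 and 26.2 CPM in KO. Values of a group are listed by replicate number throughout. Both replicate 3 libraries carried Y-linked counts (11376 in control, 5147 in KO over 4 genes, against 1 to 3 elsewhere). Replicate 3 of each group therefore held male cells, unlike replicates 1 and 2. The part of sex in the results was not tested. Fits of replicates 1 and 2 alone kept the 6 calls among the studied genes. Markers of T and Th17 cells were present in each library, with a summed level of 2706 to 3302 CPM in control and 1699 to 2128 CPM in KO, but not all moved one way. Of the 9 markers 2 were called higher (Cd3e, from 199 to 326 CPM, and Cd3g, from 151 to 249.9 CPM) and 5 lower (Il17f, from 1231 to 507 CPM, Il17a, Il23r, Cd4 and Ccr6), while Trac and Trbc2 were not called. In bulk RNA, fewer cells of a type and less RNA per cell cannot be told apart.

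The genes did not move as one group. Ccl3 and Ccl4 rose in KO, while Lif, Ltb, Lta and Csf2 fell. Tnf, Ccl20 and Ccl5 did not pass the test. Of the 9 tested genes 6 were called (edgeR, adjusted p under 0.05), beside 46.1% of all 14268 genes tested, so that with 9 genes the count lies not far from the background. The 2 calls higher stood beside 23.2% of all genes called higher, and the 4 calls lower beside 22.9%. The median log2 fold change was -0.83 for the 9 genes and 0.01 for all tested genes. In 5 of the 9 the groups did not overlap, 2 with KO above and 3 with KO below, where 57.9% of all tested genes did not overlap (29.9% with KO above and 28% with KO below).

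**Figure D1:**
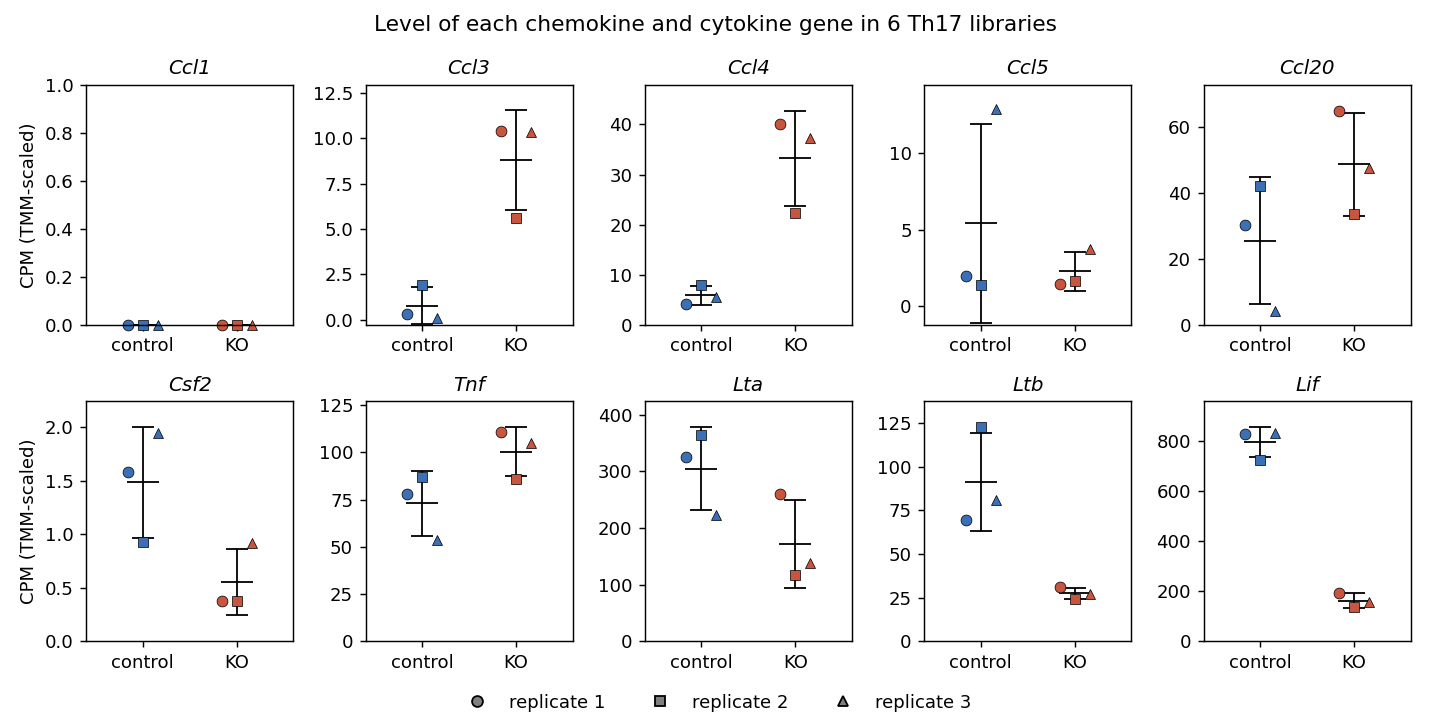
CPM of each gene in the 6 libraries, on a linear axis that differs between panels; points are libraries, with the shape giving the replicate number, and bars are the mean and SD (n = 3). Lif and Ltb separate the groups downward and Ccl3 and Ccl4 upward, while control replicate 3 stands apart from the other control libraries for Ccl5 (12.9 CPM) and Ccl20 (4.30 CPM).

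Among the chemokine genes, Ccl4 and Ccl3, which lie 13229 bases apart on chromosome 11 (GRCm38; Ccl3 at chr11:83647844-83649355 on the minus strand, Ccl4 at chr11:83662584-83664683 on the plus strand), were higher in each KO library than in any control library. Ccl4, whose product is the chemokine MIP-1 beta, held 4.13, 7.97 and 5.58 CPM in the controls against 40.0, 22.4 and 37.4 CPM in KO. The lowest KO library, replicate 2, stood well above the highest control library, also replicate 2. Its mean rose from 5.89 ± 1.94 to 33.2 ± 9.53 CPM (SD, n = 3; 5.54-fold, log2 fold change 2.47, SE 0.291, edgeR adjusted p = 0.000452).

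Ccl3, whose product binds CCR1, gave few reads in control. It held 0.304, 1.94 and 0.0713 CPM in the controls, from 5, 94 and 3 counts, and 10.4, 5.61 and 10.4 CPM in KO, from 274, 210 and 204 counts. Control replicate 2 held most control reads of this gene. The fitted log2 fold change was 3.39 (SE 0.833, edgeR adjusted p = 0.0104, means 0.772 ± 1.02 and 8.79 ± 2.76 CPM, SD, n = 3). Without control replicate 2 it was 5.85 (adjusted p = 0.00169), and without control replicate 3 it was 2.69 (adjusted p = 0.00304), so the direction and call held but the size did not.

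Ccl3 and Ccl4 are also made by CD8 T cells, NK cells and myeloid cells. Markers of these cells were low, and their summed levels were higher in KO, though not every marker rose. The summed level of 7 markers of CD8 T and NK cells was 7.42 to 11.4 CPM in control and 18.2 to 29.4 CPM in KO, with 3 of 5 tested markers (Prf1, Eomes and Gzma) called higher and none lower. Most of the difference was Prf1, which encodes perforin, at 0.182, 0.351 and 0.451 CPM in the controls against 8.96, 11.2 and 16.1 CPM in KO. The NK receptors Ncr1 and Klrb1c had no count in any library, Cd8a stayed between 0.243 and 0.966 CPM, and Cd8b1, the most abundant of the list in control, was not called (7.91 and 6.42 CPM). The 7 myeloid markers summed to 2.58 to 5.20 CPM in control and 16.9 to 28.6 CPM in KO, with 2 of 3 tested markers higher, Csf1r and the lysosomal gene Cd68, which alone reached 25.3 CPM. Of the markers too low to be tested, Lyz2 was higher in each KO library (0, 0.0413 and 0.0950 CPM in the controls against 1.75, 0.294 and 0.407 CPM in KO), and Itgam, Adgre1 and Fcgr1 did not exceed 0.134 CPM in any library. Cd14, tested and not called, held 0.302 ± 0.172 CPM in control and 0.821 ± 0.338 CPM in KO (SD, n = 3; adjusted p = 0.0646). The 5 dendritic cell markers summed to 1.80 to 3.56 CPM in control and 8.69 to 10.6 CPM in KO. Of the 2 tested, Xcr1 was called higher and Zbtb46 was not called. Of those too low to be tested, Itgax was higher in each KO library, while Flt3 overlapped (means 0.352 and 0.296 CPM). The 5 mast cell and basophil markers summed to 2.92 to 4.15 CPM and 4.27 to 6.64 CPM, with 2 of 3 tested higher (Cpa3 and Mcpt8). Kit, the most abundant of them, was not called (1.76, 3.74 and 3.52 CPM in the controls against 3.23, 2.51 and 2.03 CPM in KO). Fcer1a and Ms4a2 stayed at or under 0.641 CPM. The part of such cells in the results for Ccl3 and Ccl4, or for any other gene described here, was not tested.

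Ccl20 and Ccl5 turned on control replicate 3. Ccl20 (chr1:83116766-83119167) held 30.2, 42.1 and 4.30 CPM in the controls against 65.1, 33.7 and 47.5 CPM in KO. KO replicate 2 lay within the control range, and the gene did not pass the test (log2 fold change 0.93, SE 0.627, edgeR adjusted p = 0.25). It shrank to 0.36 without control replicate 3 (adjusted p = 0.274) and was 0.44 in replicates 1 and 2 alone (adjusted p = 0.204).

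Ccl5 (chr11:83525778-83530518), whose product is the chemokine RANTES, held 1.95, 1.36 and 12.9 CPM in the controls against 1.44, 1.66 and 3.71 CPM in KO. Replicate 3 was the highest library of each group, and the groups overlapped. The log2 fold change was -1.29 (SE 0.803, edgeR adjusted p = 0.216). Without control replicate 3 it was 0.41 (adjusted p = 0.49), and in replicates 1 and 2 alone it was -0.07 (adjusted p = 0.917). Ccl1 had 0 counts in all 6 libraries, which allows a level of up to 0.0619 to 0.182 CPM, the value of 3 counts in the deepest and the shallowest library (counting error only).

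Lif showed the largest fall of the 9 genes. It held 830, 726 and 832 CPM in the controls against 194, 136 and 156 CPM in KO. The highest KO library was far under the lowest control library. The mean fell from 796 ± 60.3 to 162 ± 29.8 CPM (SD, n = 3; 4.91-fold lower, log2 fold change -2.30, SE 0.161, edgeR adjusted p = 6.87e-05), and with 1 library left out the log2 fold change stayed between -2.45 and -2.18 and called. Lif lies at chr11:4257557-4272514, and Osm, which encodes another IL-6 family cytokine, ends 16531 bases before it. Osm held 49.6 ± 5.21 CPM without and 49.6 ± 2.26 CPM with RTF1 deficiency (SD, n = 3; fitted log2 change 0.0007, SE 0.121, adjusted p = 0.996), a value whose sign turned with the scaling.

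Csf2 (chr11:54247271-54249667) was low in both groups. It was covered by 26, 45 and 82 reads in the controls against 10, 14 and 18 in KO, or 1.58, 0.929 and 1.95 CPM against 0.380, 0.374 and 0.915 CPM. The highest KO library, replicate 3, lay just under the lowest control library, replicate 2. It was called lower (log2 fold change -1.46, SE 0.488, edgeR adjusted p = 0.037), but not without control replicate 1, control replicate 3, KO replicate 1 or KO replicate 2 (adjusted p = 0.0705, 0.0746, 0.112 and 0.14). Of its 50-base exonic stretches 6.39% also occur in the gene Gm12223. Its neighbour Il3, 15636 bases away, did not pass the filter on low counts (0.639 CPM in control and 0.119 CPM in KO).

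The TNF and lymphotoxin genes stand side by side on chromosome 17, in the order Ltb (chr17:35194439-35196320), Tnf (chr17:35199381-35202007) and Lta (chr17:35203165-35205351), with 3061 bases between Ltb and Tnf and 1158 between Tnf and Lta. Ltb and, only just, Lta were called lower, while Tnf, between them, did not pass the test. Their promoters are shown because these genes lie together, and that of Lif because it fell most. Each runs from 250 bases before to 50 bases after the RefSeq start (GRCm38.p6), 5′ to 3′ on the strand of the gene, with capitals for a match to the NF-kB consensus, the AP-1 site TGANTCA or the TATA box TATAAA on either strand.
Ltb, chr17:35194257-35194556, plus strand: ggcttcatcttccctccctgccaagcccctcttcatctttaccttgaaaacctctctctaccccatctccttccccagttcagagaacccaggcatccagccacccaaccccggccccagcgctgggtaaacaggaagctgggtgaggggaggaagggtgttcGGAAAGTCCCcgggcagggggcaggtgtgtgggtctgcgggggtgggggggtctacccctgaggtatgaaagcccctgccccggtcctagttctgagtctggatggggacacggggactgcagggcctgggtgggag
Tnf, chr17:35201958-35202257, minus strand: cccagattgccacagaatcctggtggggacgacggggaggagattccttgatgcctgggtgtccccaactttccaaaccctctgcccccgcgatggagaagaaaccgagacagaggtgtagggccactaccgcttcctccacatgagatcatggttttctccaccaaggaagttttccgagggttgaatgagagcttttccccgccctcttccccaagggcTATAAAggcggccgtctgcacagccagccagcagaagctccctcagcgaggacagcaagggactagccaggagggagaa
Lta, chr17:35205302-35205601, minus strand: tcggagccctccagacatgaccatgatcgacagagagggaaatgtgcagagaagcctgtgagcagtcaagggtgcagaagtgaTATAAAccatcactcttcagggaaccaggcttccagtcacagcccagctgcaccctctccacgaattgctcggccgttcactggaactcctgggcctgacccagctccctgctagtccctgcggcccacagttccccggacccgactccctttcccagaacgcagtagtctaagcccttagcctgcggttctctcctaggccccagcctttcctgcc
Lif, chr11:4257318-4257617, plus strand: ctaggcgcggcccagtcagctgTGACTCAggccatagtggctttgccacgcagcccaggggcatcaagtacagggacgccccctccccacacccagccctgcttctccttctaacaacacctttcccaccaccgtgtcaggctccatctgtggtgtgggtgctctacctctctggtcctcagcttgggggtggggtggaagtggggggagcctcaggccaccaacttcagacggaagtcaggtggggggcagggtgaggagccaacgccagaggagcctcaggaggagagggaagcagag

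The capitals mark an NF-kB match 87 bases before the start of Ltb and an AP-1 match 228 bases before that of Lif. They also mark a TATAAA match 29 bases before the start of Tnf and one 167 bases before that of Lta. Whether these matches are used was not tested. Of the 8 genes with a promoter in the RefSeq table, 2 held the NF-kB consensus (Ccl20 and Ltb), against 4.36% of all 27025 promoters. TATAAA was found in 2 of 8 against 14.1%, TGANTCA in 1 of 8 against 7.91%, the NFAT core run GGAAAA in 4 of 8 (Ccl1, Ccl3, Ccl20 and Tnf) against 23.6%, and the CRE motif TGACGTCA in 0 of 8 against 1.78%. GGAAAA can overlap an NF-kB match, as it does in Ccl20. The promoters that hold a match belong to genes that fell, to genes that were not called and, for GGAAAA, to Ccl3, which rose.

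Ltb, the membrane partner of LTA, held 69.4, 123 and 81.1 CPM in the controls against 30.8, 24.2 and 27.1 CPM in KO. The groups did not overlap, and the KO libraries lay close together. The mean fell from 91.0 ± 27.9 to 27.4 ± 3.31 CPM (SD, n = 3; 3.33-fold lower, log2 fold change -1.74, SE 0.212, edgeR adjusted p = 0.000527), and each fit without 1 library kept the call (-1.97 to -1.47).

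Lta held 326, 365 and 223 CPM in the controls against 259.9, 117 and 138 CPM in KO. KO replicate 1 lay above control replicate 3, so the groups overlapped. It was only just called lower (log2 fold change -0.83, SE 0.300, edgeR adjusted p = 0.049). The call did not survive leaving out control replicate 1, control replicate 2, KO replicate 2 or KO replicate 3 (adjusted p = 0.0993, 0.147, 0.16 and 0.143), scaling by library size (0.0668) or a filter on a mean count of 10 (0.0519). Without KO replicate 1 it was -1.27 (adjusted p = 0.00356).

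Tnf, which encodes the inflammatory cytokine TNF, held 78.1, 86.9 and 53.8 CPM in the controls against 110.6, 86.0 and 104.8 CPM in KO. KO replicate 2 lay just under control replicate 2, and the other KO libraries lay above every control library. The log2 fold change was 0.46 (SE 0.183, edgeR adjusted p = 0.0667; means 73.0 ± 17.1 and 100.5 ± 12.9 CPM, SD, n = 3). It was called with the replicate number as a block (0.48, adjusted p = 0.0337), when scaled by library size (0.55, adjusted p = 0.033), with every gene that had a count kept (0.45, adjusted p = 0.0474) and without control replicate 2 (0.60, adjusted p = 0.0427). Without control replicate 3 it was 0.22 (adjusted p = 0.237), and in replicates 1 and 2 alone 0.25 (adjusted p = 0.201).

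Ratios within a library, chosen after their values were seen, compared the genes of this locus directly. Reads of Lta per read of Tnf were 4.18, 4.20 and 4.14 in the controls against 2.35, 1.36 and 1.32 in KO. The control libraries lay almost on one value, although their Tnf levels differed, and each KO library lay lower. The log2 ratio differed by -1.37 between the groups (two-sided exact permutation p = 0.1, which is the least that 3 libraries against 3 can give, and 0.1 adjusted over the 3 ratios tested). For each read of Tnf there were 0.889, 1.41 and 1.51 reads of Ltb in the controls against 0.278, 0.281 and 0.259 in KO, a log2 difference of -2.18 with the same exact p. For each read of Lta there were 0.213, 0.336 and 0.364 reads of Ltb in the controls against 0.118, 0.208 and 0.196 in KO (log2 difference -0.81, same exact p), again without overlap.

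**Figure D2:**
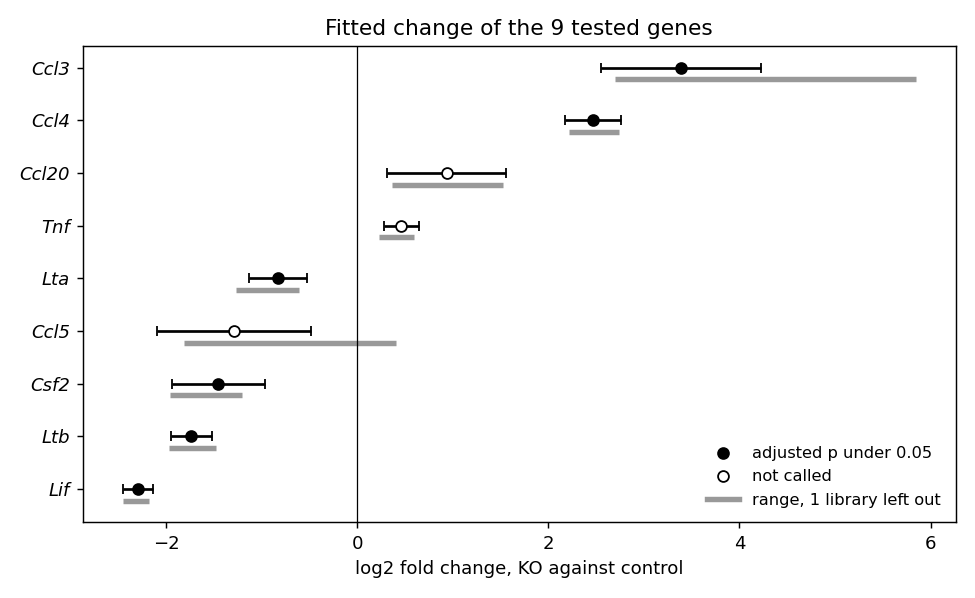
Log2 fold change of KO against control for the 9 tested genes from the edgeR fit, with its SE as a black bar, a filled point where the adjusted p was under 0.05, and a grey bar for the range over the 6 fits that left out 1 library. The grey bar of Ccl5 crosses 0 (-1.82 to 0.41) and that of Ccl3 is the widest of the called genes (2.69 to 5.85), whereas those of Lif, Ltb and Ccl4 are short.

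Of the 26 other tested protein-coding genes within 100 kb of any of them, 5 were called higher and 3 lower, beside 23.2% and 22.9% of all tested genes. Ccl6, 54757 bases from Ccl3 and named here after its values were seen, encodes another CC chemokine and was also called higher, but from 5, 3 and 5 counts in the controls and 14, 22 and 15 in KO (log2 fold change 2.19, SE 0.585, edgeR adjusted p = 0.0148). The call was lost without KO replicate 2 (adjusted p = 0.0501) or KO replicate 3 (adjusted p = 0.0534) and in replicates 1 and 2 alone (adjusted p = 0.0637). Of the others, picked after their values were seen, H2-D1, an MHC class I gene 57379 bases from Lta whose close relatives may share its reads, rose from 567 to 1717 CPM (1.597, adjusted p = 0.000535), and Taf15, 19035 bases from Ccl5, fell (-0.67, adjusted p = 0.00585).

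Compared per length of exon, the order of the levels differed between the groups. In control, Lta (220 ± 53.2 CPM per kb) and Lif (183 ± 13.9) stood highest with overlapping ranges, followed by Ltb (60.0 ± 18.4) and Tnf (44.5 ± 10.45), which overlapped each other, and by Ccl20 (17.98 ± 13.6), Ccl4 (8.93 ± 2.93), Ccl5 (5.64 ± 6.79), Csf2 (1.86 ± 0.645) and Ccl3 (1.01 ± 1.33), of which each neighbouring pair overlapped (SD, n = 3). In KO, Lta still led (124 ± 55.9 CPM per kb), clear of Tnf (61.3 ± 7.86). Tnf overlapped Ccl4 (50.4 ± 14.4), which overlapped Lif (37.2 ± 6.86), which overlapped Ccl20 (34.3 ± 11.1). Ltb (18.05 ± 2.18), Ccl3 (11.5 ± 3.60), Ccl5 (2.36 ± 1.30) and Csf2 (0.695 ± 0.389) followed without overlap between neighbours (SD, n = 3).

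The summed level of the 10 genes per length was 466 to 612 CPM per kb in control and 250.98 to 442 in KO, without overlap. Lif made up 27.3% to 41.0% of it in control and 10.1% to 12.4% in KO. Ccl4 made up 1.14% to 1.97% in control and 13.5% to 17.4% in KO, and Tnf 7.05% to 8.67% and 15.3% to 20.9%. The share of Lta, 34.6% to 43.2% and 30.6% to 42.5%, overlapped between the groups. A share can rise because the sum falls: Tnf made up 20.9% at 52.4 CPM per kb in KO replicate 2, and 8.67% at 53.0 in control replicate 2. These shares were taken from the levels given above and are a description without a test.

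**Figure D3:**
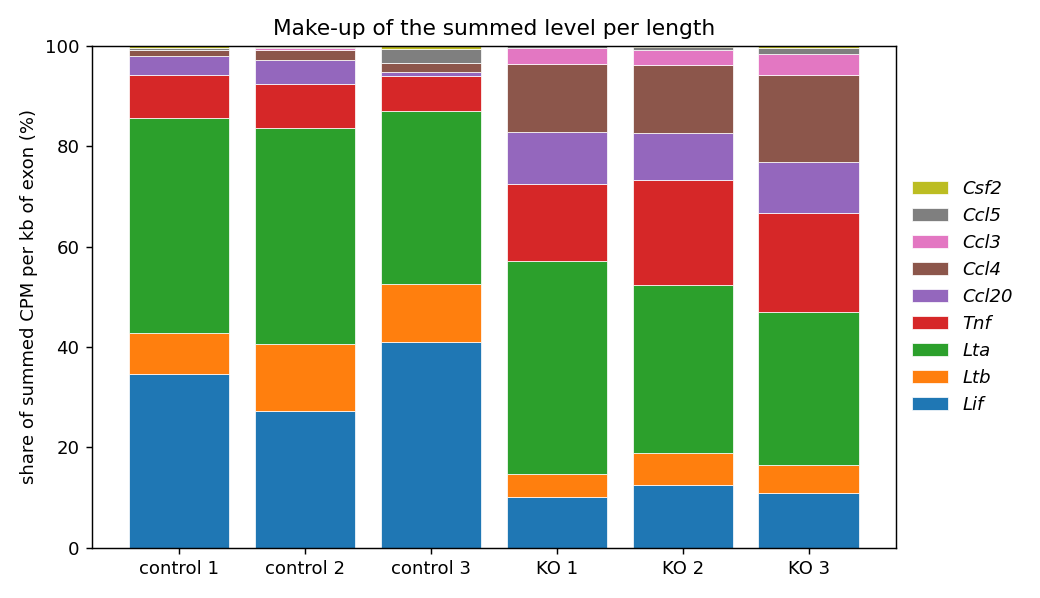
Share of each gene in the summed CPM per kb of exon, in percent, one bar per library. The Lif and Ltb segments are smaller and the Tnf, Ccl20, Ccl4 and Ccl3 segments larger in each KO library than in any control library, while that of Lta overlaps between the groups.

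Cytokine mRNAs often carry AU-rich elements in the 3′ UTR, repeats of ATTTA at which proteins such as ZFP36 bind and speed decay. The nonamer TTATTTATT occurred in the 3′ UTR of 4 of the 10 genes, 5 times in Tnf, 4 times in Csf2, 2 times in Lif and 1 time in Lta, and in 7.03% of 12439 tested genes with a 3′ UTR. The 30-base stretch richest in ATTTA (capitals) is shown for these genes and for Ccl3 and Ccl20, which hold 5 and 9 ATTTA but no nonamer, as DNA letters of the GENCODE M21 transcripts.
Tnf: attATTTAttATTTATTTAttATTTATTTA
Csf2: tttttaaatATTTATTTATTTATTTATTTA
Lif: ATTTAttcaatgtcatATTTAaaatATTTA
Lta: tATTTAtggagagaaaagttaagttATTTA
Ccl3: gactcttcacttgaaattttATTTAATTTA
Ccl20: tgtaaagatATTTAatgttctgtttATTTA

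Of the 4 genes with the nonamer, Lif, Lta and Csf2 fell and Tnf did not pass the test. Ccl3 rose with 5 ATTTA and Ccl4 rose with 2, and Ltb fell with none. Across the tested genes with a 3′ UTR, 24.6% of the 874 with the nonamer were called higher and 25.2% lower, beside 22.9% and 25.5% of the 11565 without it. Genes with and without it were not matched for 3′ UTR length or level, and the part of the nonamer in the changes was not tested.

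The mRNA levels of genes whose proteins act on such mRNAs or release TNF from the membrane changed in both directions. Of 12 genes, all tested, 5 were called higher and 3 lower, beside 23.2% and 22.9% of all tested genes. The other 4 (Zfp36l2, Rc3h1, Zc3h12a and Elavl1) were not called. Zfp36, which encodes the decay factor tristetraprolin, rose from 31.9 ± 5.43 to 110.2 ± 11.3 CPM (SD, n = 3; fitted log2 change 1.79, SE 0.153, edgeR adjusted p = 0.000136). Its relative Zfp36l1 rose from 24.6 ± 2.64 to 119 ± 10.7 CPM (2.28, adjusted p = 3.86e-05), but 55.9% of its exonic bases overlap Gm26669 and the strand setting is unknown, so this value is uncertain. Rhbdf2, a partner of the TNF-releasing protease, rose (1.35, adjusted p = 0.000285), as did the protease Adam17 (0.44, adjusted p = 0.0114, lost in 3 of 6 fits without 1 library and, at 0.0587, in replicates 1 and 2 alone) and Rc3h2, which encodes Roquin-2 (0.64, adjusted p = 0.00553), both named after their values were seen. Hnrnpd, which encodes AUF1, fell from 218 ± 28.6 to 115 ± 16.9 CPM (SD, n = 3; -0.92, adjusted p = 0.00161). Khsrp (-0.34, adjusted p = 0.0436) lost its call in 5 of 6 fits without 1 library, and Zc3h12d, also named after its values were seen (-0.67, adjusted p = 0.0136) lost it without KO replicate 2 (adjusted p = 0.0618).

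Of 13 receptor genes, those of these ligands and Csf2rb2, a copy of the GM-CSF receptor gene Csf2rb, 12 were tested. Of these 7 were called higher and 1 lower (Ccr6; 0 to 2 over the alternatives), beside 23.2% and 22.9% of all tested genes, with a median log2 fold change of 0.775, and 4 (Ccr1, Ccr3, Ccr8 and Csf2ra) were not called. Lifr, the LIF-binding chain, did not pass the filter on low counts (0.0626 and 0.0684 CPM), whereas Il6st, which encodes the shared chain gp130, rose from 75.4 ± 7.38 to 203 ± 2.98 CPM (SD, n = 3; fitted log2 change 1.43, SE 0.112, edgeR adjusted p = 0.000104). Both TNF receptor genes rose. Tnfrsf1b, the TNF receptor typical of activated T cells, held 41.6, 46.0 and 36.7 CPM in the controls against 147, 186 and 164 CPM in KO (log2 fold change 2.001, SE 0.137, adjusted p = 6.78e-05). Tnfrsf1a, the death-domain receptor, rose from 30.5 ± 2.72 to 52.1 ± 5.98 CPM (0.77, adjusted p = 0.00227).

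The other receptors of the family and of GM-CSF were at lower levels. Ltbr rose from 0.495 ± 0.170 to 2.50 ± 1.40 CPM (SD, n = 3; fitted log2 change 2.29, edgeR adjusted p = 0.00577), and Tnfrsf14, which encodes the receptor HVEM, from 16.6 ± 3.51 to 23.2 ± 1.40 CPM (0.48, adjusted p = 0.0484), which 8 of 13 alternatives did not call (adjusted p up to 0.194). Csf2rb, the signalling chain of the GM-CSF receptor, had 4, 3 and 3 counts in the controls against 101, 157 and 73 in KO (log2 fold change 5.24, SE 0.488, adjusted p = 0.000191). Its copy Csf2rb2 rose as well, from 11, 12 and 9 counts in the controls to 43, 48 and 27 in KO (2.07, adjusted p = 0.00851). Since 12.3% and 18.9% of their 50-base stretches occur in another gene, mainly each other, the division of reads between them is uncertain. Csf2ra, the binding chain, held 5.59, 4.42 and 4.99 CPM in the controls against 4.67, 5.29 and 6.66 CPM in KO (0.15, SE 0.238, adjusted p = 0.632), a value that was -0.0001 without KO replicate 3.

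None of the 4 chemokine receptor genes described was called higher. Ccr6, the receptor of CCL20, fell from 33.3 ± 11.4 to 15.02 ± 8.10 CPM (SD, n = 3; fitted log2 change -1.15, edgeR adjusted p = 0.0412), which 5 of 13 alternatives did not call (adjusted p up to 0.116, without control replicate 2). Ccr8, the receptor of CCL1, gave -0.63 (adjusted p = 0.0847) but passed the test with DESeq2 (0.0408), with any count as the filter (0.0452), with the replicate block (-0.62, 0.0282) and without control replicate 2 (-0.88, 0.0253). Ccr1 gave 0.78 (adjusted p = 0.177) and was called with the block (0.90, adjusted p = 0.0383) and without control replicate 3 (1.30, adjusted p = 0.0211). Ccr3 gave -0.56 (adjusted p = 0.111) and was called without control replicate 2 (-0.75, adjusted p = 0.0377).

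**Figure D4:**
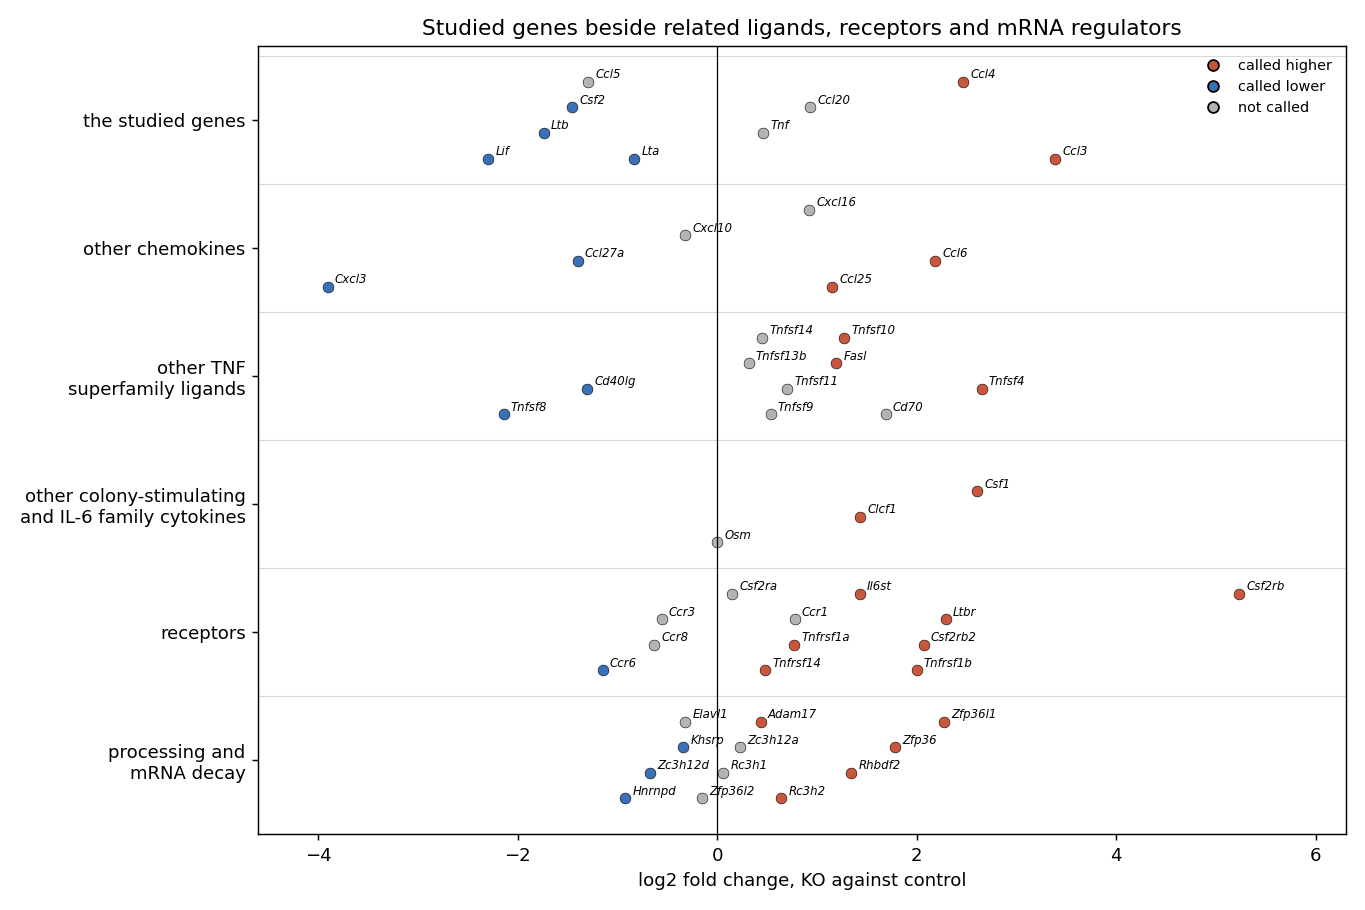
Log2 fold change of KO against control for each tested gene of 6 lists, coloured by the edgeR call at an adjusted p of 0.05; the height within a band has no meaning, and Il6 is left out because its control libraries held at most 3 counts. The 9 tested genes and the other lists each spread to both sides of 0, apart from the colony-stimulating and IL-6 family list, which holds no gene called lower.

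Other ligands of the same families were given for comparison. Of 30 other chemokine genes 29 stood in the table, 9 of those had no count at all, and 6 were tested. Of these 6 genes 2 were called higher and 2 lower, beside 23.2% and 22.9% of all tested genes. Ccl25, which attracts gut-homing cells, rose from 12.6 ± 3.67 to 27.9 ± 1.54 CPM (SD, n = 3; fitted log2 change 1.15, edgeR adjusted p = 0.00331). The neutrophil chemokine Cxcl3 fell from 54, 64 and 85 counts in the controls to 7, 0 and 4 in KO (-3.90, SE 0.796, adjusted p = 0.0045). Ccl27a fell as well (-1.40, adjusted p = 0.0119), but other genes hold 45.0% of its 50-base stretches, so the value is uncertain, and the call was lost without KO replicate 2 (adjusted p = 0.0516) and in replicates 1 and 2 alone (adjusted p = 0.0648).

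Of 14 other TNF superfamily ligands 10 were tested, with 3 called higher and 2 lower, beside 23.2% and 22.9% of all tested genes. Tnfsf4, which encodes OX40 ligand, held 2.19, 2.56 and 2.54 CPM in the controls against 13.5, 10.1 and 22.7 CPM in KO (log2 fold change 2.65, SE 0.312, edgeR adjusted p = 0.000452). Tnfsf10, which encodes TRAIL (1.27, adjusted p = 0.0062), and Fasl, named after its values were seen (1.19, adjusted p = 0.0324, lost in 4 of 6 fits without 1 library), encode death ligands and rose from low levels, 1.89 ± 0.257 and 1.26 ± 0.434 CPM. Tnfsf8, which encodes CD30 ligand, fell from 91.7 ± 32.7 to 21.0 ± 13.0 CPM (SD, n = 3; -2.14, adjusted p = 0.00351), and Cd40lg, which encodes the helper ligand CD40L, from 43.3 ± 10.2 to 17.6 ± 5.34 CPM (-1.30, adjusted p = 0.00404). For both, no KO library reached a control library.

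Of 12 other colony-stimulating and IL-6 family cytokines 4 were tested. Of these 4 genes 3 were called higher and 0 lower, beside 23.2% and 22.9% of all tested genes, and Osm was not called. Csf1, the macrophage growth factor, held 1.64, 1.59 and 2.35 CPM in the controls against 11.2, 9.51 and 13.6 CPM in KO (log2 fold change 2.61, SE 0.261, edgeR adjusted p = 0.000241), opposite in direction to Csf2. Clcf1, which signals through gp130, rose from 5.27 ± 1.67 to 14.2 ± 2.53 CPM (SD, n = 3; 1.43, adjusted p = 0.0031). Il6, named after its values were seen, had 2, 1 and 3 counts in the controls against 21, 31 and 23 in KO, at least 8.85-fold higher against a floor of 3 counts per control library (adjusted p = 0.00125).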

How the data were processed

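The deposited table gives whole-number read counts by gene symbol for 6 libraries, 3 per group, and its columns were matched to samples by description and title. STAR, featureCounts, DESeq2 and the build mm10 are named in the submitters' processing notes, with no version. The strand setting and annotation are not given in the sources used here. KO was compared with control by edgeR's quasi-likelihood test (edgeR 4.0.16, R 4.3.3) with TMM factors and filterByExpr, which kept 14268 genes, and p-values were adjusted over all of them (Benjamini-Hochberg, threshold 0.05). SE is the absolute log2 fold change over the square root of F. CPM used the same factors. The biological coefficient of variation was 0.212, and intervals from counts cover counting error only. The test was checked on simulated data.

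The genes and lists were chosen with earlier results of these data known. Named genes were Rtf1, the 10 genes, tested receptors, and from each other list up to 4 called genes with the largest change at a mean of at least 1 CPM plus the most abundant tested gene; other called genes are marked as named after their values were seen. Locations, exon lengths, overlaps and 3′ UTRs (the transcript with the longest coding sequence) came from GENCODE M21 (GRCm38), which held 98.4% of the symbols, and promoters from RefSeq (GRCm38.p6), which held 8 of the 10 genes. Marker lists of T, B, myeloid, dendritic, CD8 T and NK, mast and basophil, and fibroblast cells were summed. 1 entry each of the receptor list and the T cell list is not reported here, and the counts and sums leave it out. The B cell list summed to 8.33 to 12.3 CPM in control and 6.38 to 7.16 in KO (2 of 3 tested lower), and the fibroblast list to 0.486 to 0.665 and 0.107 to 0.797 (0 of 1 called).

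Both groups carry replicate numbers 1, 2 and 3. Deviations from the group mean correlated across genes by 0.27, 0.13 and 0.38 between libraries of equal number. Between unequal numbers the correlation ran from -0.39 to 0.20, the highest for control replicate 2 with KO replicate 1. The labels do not say what the numbers stand for. The reported test used no pairs, and the replicate number entered as a block only as an alternative. The alternatives were DESeq2 1.42.0, upper-quartile factors, library size only, other filters, a replicate block, each library left out, and replicates 1 and 2 alone.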

Additional observations from a re-analysis of the deposited data

How the results depend on the processing

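Lif, Ltb, Ccl4 and Ccl3 kept direction and call under all 13 alternatives, and Ccl20 stayed uncalled in each. The 2 calls higher among the 10 genes ranged from 2 to 3. The 4 calls lower were 3 or 4 under other scalings, filters and the block, and 2 to 3 with a library left out: 2 without control replicate 1 and 2 without KO replicate 2. Calls lower over all genes were 2170 (without KO replicate 2) to 3700 (without control replicate 3) with a library left out.

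Of the related lists, the other chemokines had 6 calls higher with any count as the filter, which tests more genes, 1 in replicates 1 and 2 alone and 1 to 3 with a library left out; calls lower were 1 in replicates 1 and 2 alone and 1 to 2 with a library left out. The other colony-stimulating and IL-6 family cytokines had 2 calls lower with any count, 1 in replicates 1 and 2 alone and 0 to 1 with a library left out. Receptor calls lower, 1 in the test reported, were 2 with DESeq2, any count and the replicate block, 0 with library size only and 0 to 2 with a library left out. Calls lower among the mRNA decay genes were 1 to 4 with a library left out. Where no cause is given, the cause was not tested.

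The sign turned for Ccl5 without control replicate 3 (0.41; -1.82 to 0.41 with a library left out), for Csf2ra without KO replicate 3 (-0.0001; to 0.25) and for Osm with DESeq2 (-0.012), upper-quartile factors (-0.016), any count (-0.011), replicates 1 and 2 alone (-0.079), without control replicate 1 (-0.045), control replicate 3 (-0.14) and KO replicate 1 (-0.041), against 0.049 without control replicate 2. With the replicate block, Tnf (0.48), Ccr8 (-0.62) and Ccr1 (0.90) became called, and no other call of a named gene changed. Few counts limit Csf2, Ccl3, Csf2rb, Csf2rb2, Ltbr, Ccl6 and Il6.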
